A study of Homo sapiens with 9 samples.

Results

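The genes described here are the long intergenic noncoding RNA genes of the LINC series that were read at a measurable level in OCI-Ly1, an established line of human diffuse large B-cell lymphoma. They were chosen by symbol and level: a symbol of LINC followed by digits alone, and a mean of at least 0.5 CPM (counts scaled to the total of each library's counted reads, per 1000000) over the 9 libraries of the experiment. Of 500 such symbols in a table of 26816 genes, 133 reached that level and 367 did not. Cells of 3 groups were sequenced as polyadenylated RNA, each in 3 biological replicates: cells with the LSD1 shRNA sh68, cells with the LSD1 shRNA sh72, and cells with the non-targeting shRNA shSCR. All carried a pLKO1 vector and had been through puromycin selection, the control cells included, and all are derivatives of 1 cell line, with the names of the hairpins taken from the column names of the count table. No time after infection is given in the labels.

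LINC numbers are names given to genes for long RNAs that lie between protein-coding genes and have no settled function. Such RNAs are capped, usually spliced and often polyadenylated, they are as a rule less abundant and more cell-type restricted than messenger RNAs, and some act on genes beside them or were later found to encode small proteins. LSD1, the product of KDM1A, removes methyl groups from histone H3 at enhancers and promoters as part of complexes with CoREST, and in germinal-centre B cells it is a partner of the repressor BCL6.

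The libraries held 29506767 to 35270849 counted reads, of which these 133 genes took 0.127 to 0.146%. KDM1A stood at 24.5 ± 1.25 CPM in sh68 and 21.2 ± 2.15 CPM in sh72, against 119.3 ± 1.99 CPM in shSCR (SD, n = 3 each), which left 20.6% and 17.7% of the shSCR level (edgeR log2 fold change of the mean of both shRNAs -2.42 ± 0.044 SE, adjusted p = 4e-22). The two-sided exact permutation p was 0.0119 for 6 libraries against 3 and 0.1 for each shRNA, the smallest each design allows. All 8 B-cell markers were read, with summed levels of 5600 to 5700 CPM in sh68, 3860 to 3950 CPM in sh72 and 5400 to 5540 CPM in shSCR. The summed markers of T and natural killer cells reached at most 1.03 CPM in any library, and those of monocytes at most 0.465 CPM. Fibroblast markers summed to 1.24 to 1.56 CPM in sh68, 1.27 to 3.29 CPM in sh72 and 0.274 to 0.542 CPM in shSCR, and the epithelial ones, nearly all of them EPCAM, to 7.6 to 8.9, 15.9 to 16.2 and 15 to 17.8 CPM in the same order of groups. The part of B-cell identity genes in the results below was not tested.

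Current annotation divides the set. RefSeq (GRCh38.p14) held all 133, 100 under the deposited symbol and 33 under a newer one. It types 120 as long noncoding RNA, 12 as protein-coding and 1, LINC01296, as a transcribed pseudogene. Among the 12 are LINC00116, now MTLN, whose product mitoregulin is a small mitochondrial membrane protein, LINC01420, now NBDY, which encodes a microprotein of the messenger RNA decapping complex, and LINC00493, LINC00998 and LINC00634, now SMIM26, SMIM30 and SMIM45. LINC00341 is now a synonym of SYNE3, a nuclear envelope protein gene, although the count table also has a SYNE3 row. The genes lie on 23 chromosomes, with 16 on chromosome 1 and 13 on chromosome 2. For 24 of them the span of the nearest protein-coding gene overlaps their own, and for another 41 that gene lies within 10000 bases. In GENCODE 29, which matched 125, exons of 54 overlap exons of another gene. Whether the authors' counting used strand is not given in the sources used here, so reads in such overlaps cannot be assigned with certainty.

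The promoters of the 3 LINC genes with the largest rises and the 2 with the largest falls by the naming rule, among those that RefSeq types as noncoding, are shown as examples. Each runs from 250 bases before to 50 after the RefSeq start, 5′ to 3′ on the gene's own strand, from RefSeq's GRCh38.p14 table, and capitals mark the motifs found on either strand.
LINC01268, chr6:113873298-113873597, - strand: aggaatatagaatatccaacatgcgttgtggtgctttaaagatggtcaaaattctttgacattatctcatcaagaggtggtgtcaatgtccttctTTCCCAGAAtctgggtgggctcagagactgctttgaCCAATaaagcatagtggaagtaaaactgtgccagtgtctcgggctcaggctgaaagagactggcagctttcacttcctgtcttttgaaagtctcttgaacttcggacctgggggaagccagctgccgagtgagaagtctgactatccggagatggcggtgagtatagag
LINC01054, chr13:114333899-114334198, - strand: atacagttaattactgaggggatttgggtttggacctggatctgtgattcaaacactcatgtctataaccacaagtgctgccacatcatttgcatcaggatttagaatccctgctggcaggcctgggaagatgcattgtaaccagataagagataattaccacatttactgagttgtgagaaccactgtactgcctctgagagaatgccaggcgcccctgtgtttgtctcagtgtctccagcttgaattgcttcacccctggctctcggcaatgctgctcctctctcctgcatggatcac
LINC00337, chr1:6235990-6236289, + strand: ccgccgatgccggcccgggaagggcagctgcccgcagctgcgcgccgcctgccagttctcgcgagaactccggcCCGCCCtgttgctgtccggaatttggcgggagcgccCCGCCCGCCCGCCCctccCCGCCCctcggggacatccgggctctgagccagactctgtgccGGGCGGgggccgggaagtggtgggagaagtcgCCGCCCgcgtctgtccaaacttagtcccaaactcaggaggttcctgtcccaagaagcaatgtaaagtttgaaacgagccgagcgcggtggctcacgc
LINC01134, chr1:3900154-3900453, + strand: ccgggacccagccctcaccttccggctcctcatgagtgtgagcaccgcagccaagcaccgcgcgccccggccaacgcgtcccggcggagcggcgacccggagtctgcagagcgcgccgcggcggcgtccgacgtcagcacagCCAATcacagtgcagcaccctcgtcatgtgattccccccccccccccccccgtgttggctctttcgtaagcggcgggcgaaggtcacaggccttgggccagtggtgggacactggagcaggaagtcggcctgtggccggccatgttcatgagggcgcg
LINC00877, chr3:72100406-72100705, - strand: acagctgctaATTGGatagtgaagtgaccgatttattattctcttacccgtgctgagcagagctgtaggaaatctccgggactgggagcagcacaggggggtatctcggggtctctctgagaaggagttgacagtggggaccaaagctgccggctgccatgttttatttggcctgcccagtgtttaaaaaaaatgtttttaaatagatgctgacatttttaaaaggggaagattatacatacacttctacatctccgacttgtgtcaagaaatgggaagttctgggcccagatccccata
These 6 motifs were searched on both strands: an interferon response core (GAAANNGAAA), a TATA box (TATAAA), the CCAAT motif, the palindrome shared by STAT and BCL6 sites (TTCNNNGAA), a GC box (GGGCGG) and an E-box (CACGTG). The LINC01268 window holds 1 STAT or BCL6 palindrome and 1 CCAAT box, and has 6 CpG dinucleotides. None of the 6 motifs is in the LINC01054 window, which has 2 CpG dinucleotides. The LINC00337 window, just beside the start of ICMT on the other strand, has 33 CpG dinucleotides and holds 7 GC boxes, some of them overlapping. LINC01134 and LINC00877 each hold 1 CCAAT box, in windows with 32 and 6 CpG dinucleotides.

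Promoter entries were found for 102 of the LINC genes, 115 windows in all because some genes have several starts. The CCAAT box was in 47% of these windows, against 34.6% of all 35116 windows in the RefSeq table. The STAT or BCL6 palindrome was in 10.4%, against 7.66% of all windows, and the interferon core in 3.48%, against 3.57%. The GC box was in 41.7%, against 45%, the TATA box in 13%, against 11.5%, and the E-box in 11.3%, against 7.26%. By group of genes, the CCAAT box was in 14 of 34 windows of LINC genes that rose with LSD1 shRNA, in 12 of 17 of those that fell and in 28 of 64 of those that did not pass. In the same order, the STAT or BCL6 palindrome was in 5, 0 and 7 windows and the E-box in 6, 0 and 7. The GC box was in 15, 10 and 23, the TATA box in 4, 1 and 10, and the interferon core in 2, 1 and 1. Windows of the same gene, as for LINC00623, LINC00641, LINC00665 and LINC01578 among those that fell, are counted separately. Windows rich in CpG (at least 50% GC and a ratio of observed to expected CpG of at least 0.6) made up 51.3% of the LINC windows, against 46.9% of all. These letter matches describe the windows only and were not tested.

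The levels ran over a wide range. Means over the 9 libraries, the values on which the genes were selected, went from 0.53 to 200.1 CPM with a median of 2.95: 3 genes were at 100 CPM or more, 27 at 10 to under 100, 76 at 1 to under 10, and 27 at 0.5 to under 1. Every gene had reads in every library. The 8 most abundant took 48.6% of the summed level. LINC00926 led in CPM with 191.5 ± 10.9 CPM in sh68 and 206 ± 20.1 CPM in sh72, against 202.8 ± 10.5 CPM in shSCR and its groups overlapped. LINC01000 had 92 ± 4.87, 106.6 ± 5.61 and 112.2 ± 5.17 CPM in sh68, sh72 and shSCR, and LINC01215 109.7 ± 4.96, 103.2 ± 0.0559 and 87.8 ± 5.68 CPM. Per length, on GENCODE 29 exons for the 109 genes matched under the same symbol, LINC00674 was first at 90.5 CPM per kilobase, then LINC00926 at 54.5, LINC01612 at 39.7 and LINC01215 at 38.7, with a median of 1.1. The annotation used in the authors' counting is not given in the sources used here, so these lengths may differ from those behind the counts.

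Just inside the level rule were LINC01605 at a mean of 0.529 CPM, LINC01483 at 0.531, LINC01465 at 0.542 and LINC01037 at 0.545, and just outside it LINC01389 at 0.496, LINC00083 at 0.494, LINC00854 at 0.489 and LINC01185 at 0.46. Because the mean takes in the LSD1 shRNA libraries, a gene could enter through them. All 133 reached 0.5 CPM in sh68, 125 did in sh72 and 121 in shSCR, and 4 reached it in sh68 alone. Of the 12 below 0.5 CPM in shSCR, 9 rose with LSD1 shRNA in the test below and 3 missed its threshold; these 9 had to lie higher in the LSD1 shRNA libraries to be in the set. Summed over the set, the level was 1407 to 1430 CPM in sh68 and 1338 to 1461 CPM in sh72, against 1269 to 1346 CPM in shSCR. The sh68 libraries all lay above shSCR, while sh72 replicate 1 lay within the range of shSCR.

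The first comparison took the average of sh68 and sh72 over shSCR and asks which LINC RNAs changed when KDM1A RNA was depleted. It was tested with edgeR's quasi-likelihood test over all 15725 genes that passed a filter on low counts, all 133 LINC genes among them, and a gene is called changed at a Benjamini-Hochberg adjusted p below 0.05. More LINC genes rose than fell. Of the 133, 43 rose and 15 fell, or 32.3% and 11.3%, against 24.9% and 27.5% of all genes tested, and 75 did not pass. The median log2 fold change was 0.113 over the LINC genes and -0.015 over all genes tested. In bulk RNA, a change of level per cell and a change in the share of cells that express a gene cannot be told apart. At least 2-fold higher were 14 LINC genes and at least 2-fold lower 2, against 4.73% and 1.41% of all genes tested; of these 14, 9 lay under 0.5 CPM in shSCR and entered the set through the LSD1 shRNA libraries, which leaves 5 higher and 2 lower. Among those that passed, 29 had all 6 LSD1 shRNA libraries above all 3 controls and 11 had all 6 below, against 15.7% and 12.3% of all genes tested. Without the 12 genes under 0.5 CPM in shSCR, 34 of 121 rose and 15 fell, or 28.1% and 12.4%, with a median log2 fold change of 0.077.

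**Figure D1:**
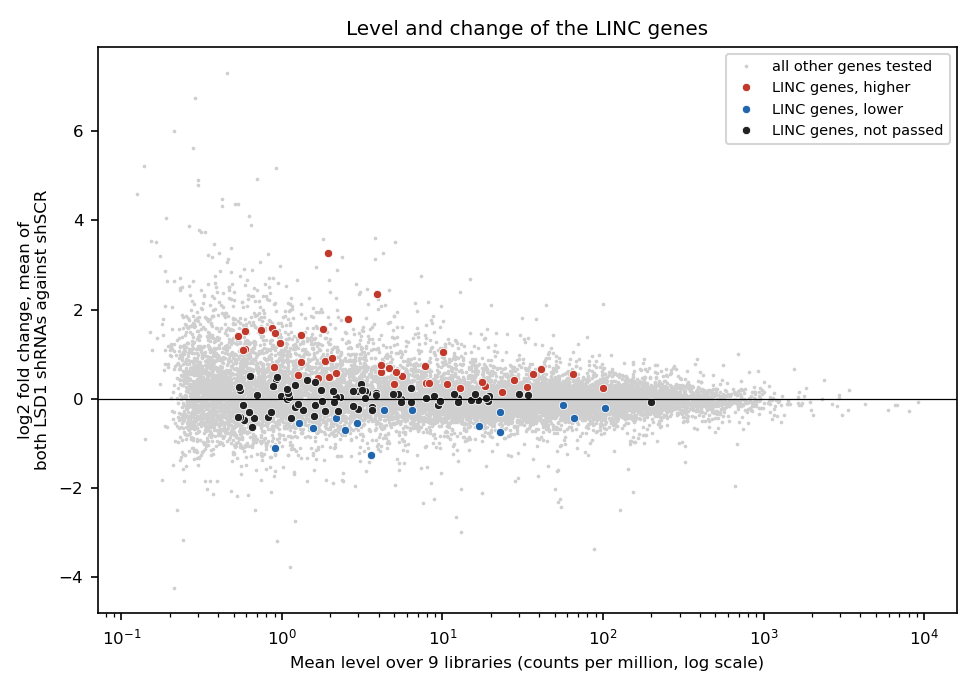
Mean level over the 9 libraries (CPM, log axis) against the log2 fold change of the average of sh68 and sh72 over shSCR, 1 point a gene, with the 133 LINC genes coloured by the test and all other genes tested in grey. The 43 LINC genes that rose run up to LINC01268 at 3.26, the 15 that fell reach -1.25 at LINC01134, and the most abundant, LINC00926 at 200.1 CPM, lies near 0. LINC01268 lay under 0.5 CPM in shSCR and entered the set through the LSD1 shRNA libraries.

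The precision differed with level, and with it the counts. The median SE of a log2 fold change was 0.134 for the LINC genes and 0.063 for all genes tested, and the median biological coefficient of variation 0.0676 and 0.0474. At 10 CPM and over, 12 of 30 LINC genes rose and 6 fell, against 25.1% and 37.5% of the 8885 genes of that level. At 1 to under 10 CPM, 22 of 76 rose and 8 fell, against 28% and 19.4% of 3855 genes. At 0.5 to under 1 CPM, 9 of 27 rose and 1 fell, against 22.1% and 10.4% of 1436 genes, a range that genes could enter through the LSD1 shRNA libraries. The difference between the LINC genes and genes of the same level was not tested. Antisense RNAs, 297 genes with an -AS symbol and the same minimum level, had 103 higher and 25 lower, or 34.7% and 8.42%, so the excess of rises over falls was not limited to the LINC symbols.

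**Figure D2:**
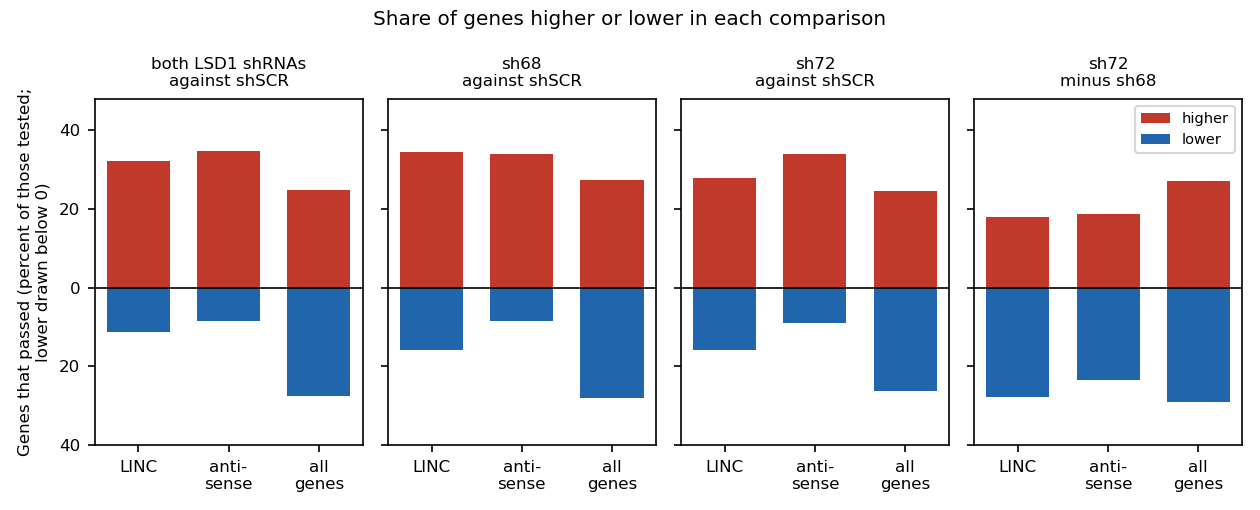
Percent of genes that passed the test in each comparison, those higher drawn above 0 and those lower below, for the 133 LINC genes, 297 antisense RNAs and all 15725 genes tested. In the first panel LINC genes had 32.3% higher and 11.3% lower, against 24.9% and 27.5% of all genes.

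LINC01268 rose most. Now named MROCKI, it lies on chromosome 6 (GRCh38.p14, 113868013 to 113873347, minus strand) beside MARCKS and is known from human monocytes, where it is linked to MARCKS and inflammatory genes. It was read at 0.993, 0.879 and 0.713 CPM in the sh68 libraries and 4.86, 4.65 and 4.69 CPM in sh72, against 0.152, 0.203 and 0.252 CPM in shSCR. The groups did not overlap, which the naming rule requires, and sh72 stood well above sh68. Behind these levels are 88 reads in sh68, 452 in sh72 and 19 in shSCR. Every shSCR library lay under 0.5 CPM, so LINC01268 is in the set through the LSD1 shRNA libraries and had to lie higher there. The log2 fold change was 3.26 ± 0.247 on the mean (adjusted p = 1.02e-10), 2.04 ± 0.31 with sh68 and 4.49 ± 0.225 with sh72. MARCKS, a membrane-bound actin-binding protein gene 4538 bases away, had at most 10 reads in any library and was not tested.

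LINC01054, on chromosome 13 (114329757 to 114333948, minus strand) 2435 bases from CHAMP1, had 5.49, 5.5 and 4.88 CPM in sh68 and 5.96, 5.61 and 4.55 CPM in sh72, against 1.00, 0.983 and 1.07 CPM in shSCR. Both shRNAs gave nearly the same rise, 2.34 ± 0.158 and 2.36 ± 0.159 on the log2 scale, and their difference was 0.02 ± 0.117 (adjusted p = 0.907). CHAMP1, a kinetochore-associated zinc finger gene, had 0.20 ± 0.0295 (adjusted p = 5.57e-06).

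LINC00337, or ICMT-DT, runs divergently from ICMT, the methyltransferase of prenylated proteins, on chromosome 1 (6236240 to 6239444, plus strand). It had 4.41, 3.83 and 4.08 CPM in sh68 and 2.4, 2.71 and 2.91 CPM in sh72, against 1.34, 0.542 and 0.883 CPM in shSCR. The change was 1.79 ± 0.183 (adjusted p = 1.7e-08), and the 3 groups stood apart with sh68 highest. ICMT lies 276 bases away in RefSeq and overlaps its exons on the other strand in GENCODE 29. On the mean ICMT did not pass (0.06 ± 0.0315, adjusted p = 0.11), but its values by shRNA had opposite signs. ICMT rose in sh68 by 0.21 ± 0.0361 (adjusted p = 3.36e-05). Its sh72 value, -0.09 ± 0.0364, missed the threshold (adjusted p = 0.0527). The difference, sh72 minus sh68, was -0.29 ± 0.0362 and passed (adjusted p = 2.42e-07).

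LINC01305 was the most abundant of the strong risers. On chromosome 2 (174326027 to 174330643), 4311 bases from SP9, a zinc finger transcription factor gene, it had 18, 13.4 and 17 CPM in sh68 and 6.53, 9.58 and 10.1 CPM in sh72, against 5.06, 5.49 and 6.08 CPM in shSCR. The lowest sh72 library was close above the highest shSCR one. The change was 1.51 ± 0.125 with sh68 and 0.61 ± 0.136 with sh72, with a difference of -0.90 ± 0.116 (adjusted p = 4.6e-07).

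The other 8 of the 12 highest by the naming rule were read at about 0.2 to 3.3 CPM. Of these LINC00634, now SMIM45, rose by 1.59 ± 0.262, LINC01239 by 1.56 ± 0.209, LINC01160 by 1.52 ± 0.312 and LINC00698 by 1.47 ± 0.292. LINC00634 and LINC00698 were among the genes under 0.5 CPM in shSCR (means of 0.366 and 0.408 CPM) that entered through the LSD1 shRNA libraries. Only 5 of the 14 genes at least 2-fold higher reached 0.5 CPM in shSCR, LINC01054, LINC00337, LINC00638 and LINC01305 among them. Some of LINC01239, LINC01160 and LINC00882 therefore entered in the same way. LINC00638, or VESTAR, had 2.33, 1.39 and 1.6 CPM in sh68 and 1.56, 1.45 and 1.67 CPM in sh72, against 0.64, 0.373 and 0.756 CPM in shSCR, a change of 1.44 ± 0.232. LINC00882 changed by 1.26 ± 0.257 and LINC01058 by 0.91 ± 0.152. The adjusted p of these 7 lay between 1.08e-06 and 0.000246. LINC00152, or CYTOR, an RNA described in many tumours, had 1.86, 1.93 and 1.65 CPM in sh68 and 2.23, 2.29 and 3.18 CPM in sh72, against 0.883, 1.29 and 1.36 CPM in shSCR, a change of 0.84 ± 0.178 (adjusted p = 0.000336). It has a near-identical copy in MIR4435-2HG, which had 0.44 ± 0.132 (adjusted p = 0.00733), and how reads were split between the copies is uncertain.

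**Figure D3:**
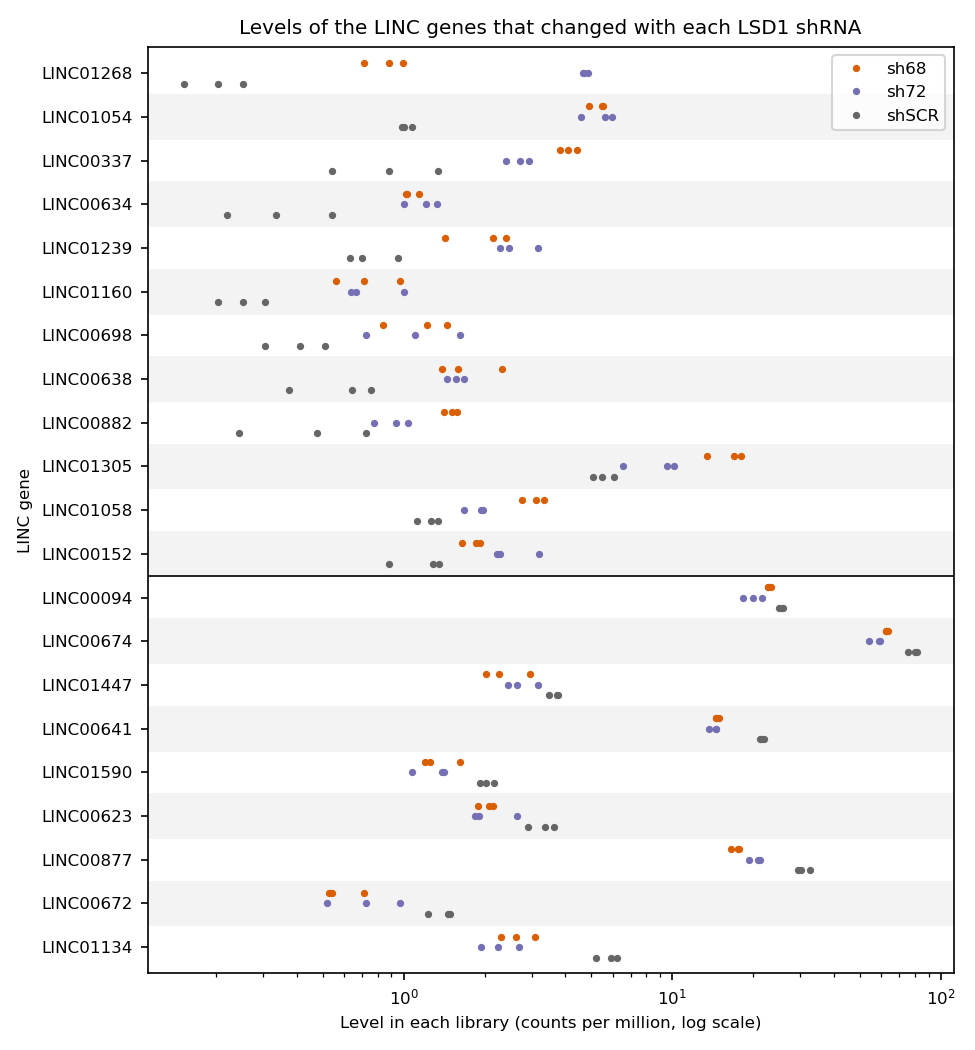
Level of each of the 21 LINC genes that met the naming rule for the mean of both shRNAs, 1 point a library (CPM, log axis), with sh68, sh72 and shSCR on separate lines of a row. Above the rule line are the 12 that rose, where all 6 LSD1 shRNA libraries lie right of the 3 shSCR libraries, and below it the 9 that fell, where they lie left of them.

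Fewer LINC genes fell, and none by more than LINC01134. That gene, on chromosome 1 (3900404 to 3915447, plus strand) 132 bases from the divergent gene C1orf174, had 3.07, 2.3 and 2.62 CPM in sh68 and 2.69, 1.94 and 2.24 CPM in sh72, against 5.18, 6.24 and 5.93 CPM in shSCR. The change was -1.25 ± 0.118 (adjusted p = 4.05e-09), with clear separation of the groups and no difference between the shRNAs that passed (-0.22 ± 0.159, adjusted p = 0.261). C1orf174 had -0.28 ± 0.0626 (adjusted p = 0.00057).

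LINC00877, on chromosome 3 (72035519 to 72100455, minus strand), had 17.7, 16.5 and 17.6 CPM in sh68 and 19.3, 20.8 and 21.1 CPM in sh72, against 29.4, 30.2 and 32.7 CPM in shSCR. Its fall of 0.75 on the log2 scale (SE 0.0504, adjusted p = 1.29e-11) had the smallest p of the 15. LINC00641, on chromosome 14, had 14.6, 14.5 and 15 CPM in sh68 and 13.7, 14.6 and 14.5 CPM in sh72, against 21.4, 21.9 and 21.1 CPM in shSCR. Replicates of LINC00641 were tight, and the change was -0.60 ± 0.0523 (adjusted p = 1.08e-09). LINC00674, among the most abundant LINC RNAs, averaged 62.9 ± 0.685 CPM in sh68 and 57.3 ± 3 CPM in sh72, against 79 ± 3.2 CPM in shSCR, a change of -0.43 ± 0.0386 (adjusted p = 1.87e-09).

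LINC00672, now LASP1NB for its place beside LASP1, had 0.593 ± 0.101 CPM in sh68 and 0.737 ± 0.228 CPM in sh72, against 1.39 ± 0.143 CPM in shSCR, a change of -1.10 ± 0.207 (adjusted p = 9.25e-05). LINC00623 changed by -0.69 ± 0.135, LINC01590 by -0.66 ± 0.157 and LINC01447 by -0.53 ± 0.13, with adjusted p of 0.000147 to 0.00128. LINC00094, now BRD3OS, overlaps exons of BRD3 on the other strand and had -0.29 ± 0.0517 (adjusted p = 6.03e-05), while BRD3, a bromodomain protein gene, had 0.29 ± 0.0479 (adjusted p = 1.66e-05). The opposite signs of the pair stand in reads that may be shared.

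Several abundant LINC RNAs rose by less than 2-fold but with tight replicates. LINC01184, or SLC12A2-DT, had 44.2, 49.5 and 44.1 CPM in sh68 and 46.5, 48 and 50.3 CPM in sh72, against 29.8, 28.4 and 28.6 CPM in shSCR (0.67 ± 0.0491, adjusted p = 5.8e-11). LINC00667 had 81.8, 86.5 and 82.2 CPM in sh68 and 65.9, 61.4 and 64.1 CPM in sh72, against 47.8, 49.4 and 47.2 CPM in shSCR (0.57 ± 0.0425, adjusted p = 8e-11). For both genes every LSD1 shRNA library lay above every shSCR library. The LINC01184 levels of sh68 and sh72 overlapped, while for LINC00667 the groups stood apart with sh68 highest. LINC00526, whose exons overlap those of LINC00667 on the opposite strand, had 0.69 ± 0.117, and the 2 are not independent if strand was ignored; it was named for this overlap after its values were seen. LINC01021, or PURPL, a p53-induced RNA that restrains p53, had 36, 32.3 and 34.1 CPM in sh68 and 46.1, 51.4 and 50.3 CPM in sh72, against 25.8, 27.4 and 28.5 CPM in shSCR (0.56 ± 0.049, adjusted p = 1.34e-09). LINC01215 rose by 0.24 ± 0.0415. LINC01000 changed by -0.21 ± 0.0384 (adjusted p = 5.35e-05). LINC01578, or CHASERR, which in mouse and human cells restrains the neighbouring chromatin remodeller gene CHD2, changed by -0.14 ± 0.0431 (adjusted p = 0.00783). CHD2 itself had 0.05 ± 0.0309 on the mean and did not pass (adjusted p = 0.203). By shRNA, CHD2 was higher in sh72 by 0.17 ± 0.0356 (adjusted p = 0.000326). Its sh68 value, -0.07 ± 0.0357, missed the threshold (adjusted p = 0.0835). The difference of 0.24 ± 0.0356 for CHD2, sh72 minus sh68, passed (adjusted p = 3.01e-06). LINC01578 did not pass without shSCR replicate 2 (-0.123, adjusted p = 0.0558) or without shSCR replicate 3 (-0.107, adjusted p = 0.0825). LINC00926 had -0.06 ± 0.0436 and did not pass (adjusted p = 0.223).

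Of the list of LINC genes fixed by name, 14 of 25 were tested, and 7 rose, 1 fell and 6 did not pass, against 24.9% higher and 27.5% lower over all genes tested. LINC00324 had 0.52 ± 0.106 (adjusted p = 0.000265), LINC01420 0.27 ± 0.0541 (adjusted p = 0.000191) and LINC00998 0.24 ± 0.0816 (adjusted p = 0.0172). With sh72 alone, LINC00324 did not pass (0.25 ± 0.124, adjusted p = 0.095). Without shSCR replicate 1, LINC00998 had 0.163 and did not pass (adjusted p = 0.144). LINC00665 had -0.25 ± 0.1 (adjusted p = 0.0379) and lost its call in 12 of 16 alternative settings. LINC00116, LINC00493, LINC00467, LINC00909 and LINC00339 did not pass, with values from -0.13 to 0.23 and adjusted p from 0.0655 to 0.845. Genes that did not pass in the whole set ran from -0.62 to 0.51, and the 20 risers outside the naming rule from 0.15 to 1.10.

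Set against shSCR alone, sh68 gave 46 LINC genes higher and 21 lower, against 27.4% and 28.1% of all genes tested (34.6% and 15.8% of the LINC genes). For sh72 the counts were 37 higher and 21 lower, or 27.8% and 15.8%, against 24.7% and 26.3% of all genes tested. Median log2 fold changes were 0.15 with sh68 and 0.052 with sh72, against -0.008 and -0.011 over all genes tested. Over the 121 LINC genes of at least 0.5 CPM in shSCR, 29.8% rose and 17.4% fell with sh68. With sh72, 26.4% of these 121 rose and 17.4% fell. The medians of these 121 were 0.061 with sh68 and 0.046 with sh72. Antisense RNAs had 101 higher and 25 lower with sh68, and 101 higher and 27 lower with sh72. The shRNA comparisons share their 3 shSCR libraries.

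The shRNAs were also set against each other, with KDM1A left at 17.7% of shSCR in sh72 and 20.6% in sh68. For sh72 minus sh68, 24 LINC genes were higher and 37 lower, or 18% and 27.8%, against 27.2% and 29% of all genes tested, and 72 did not pass. The median difference was -0.056, against -0.011 over all genes tested. Over the 117 LINC genes that reached 0.5 CPM in each of the 3 groups, 23 were higher and 27 lower, so 10 of the 37 lower calls were in genes under that level in some group.

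LINC01226 differed most. On chromosome 1 (31518435 to 31524245), it had 0.0578, 0.0645 and 0.134 CPM in sh72, against 2.2, 1.62 and 2.22 CPM in sh68, and 0.122, 0.0678 and 0.221 CPM in shSCR. The sh68 libraries stood far above the rest, with 8 reads in sh72, 206 in sh68 and 13 in shSCR, and sh72 did not differ from shSCR beyond the spread (-0.73 ± 0.638, adjusted p = 0.357). Set against sh68, sh72 was at -4.53 ± 0.359 (adjusted p = 1.7e-10). Its exons overlap LINC01225, itself under the level rule, which had 0.0528 CPM in sh72, 1.23 CPM in sh68 and 0.0658 CPM in shSCR, so their reads may be shared.

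LINC01483, on chromosome 17, showed the same order, with 0.289, 0.258 and 0.167 CPM in sh72, against 1.12, 1.22 and 1.14 CPM in sh68, and 0.0609, 0.271 and 0.252 CPM in shSCR (-2.26 ± 0.328, adjusted p = 2.68e-06). LINC00654, on chromosome 20, had 0.376, 0.419 and 0.301 CPM in sh72, against 1.09, 1.28 and 1.03 CPM in sh68, and 0.335, 0.203 and 0.315 CPM in shSCR (-1.63 ± 0.275, adjusted p = 2.18e-05). For both, sh72 overlapped shSCR and sh68 stood apart. LINC00282, now TMEM272, had 0.471 ± 0.0451 CPM in sh72, against 1.7 ± 0.0878 CPM in sh68, and 0.624 ± 0.351 CPM in shSCR (-1.85 ± 0.286, adjusted p = 6.61e-06). All 3 of LINC01226, LINC01483 and LINC00654 also passed on the mean of both shRNAs, a mean that rests on sh68. These 3 lay under 0.5 CPM in shSCR and in sh72, so they are in the set through sh68. Without sh72 replicate 3, LINC01226 had 1.33 on that mean and did not pass (adjusted p = 0.0636).

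There were 4 LINC genes that passed in opposite directions with the 2 shRNAs, against 7.83% of all genes tested, or 1231 of 15725. LINC01559, on chromosome 12, had 0.491, 1.03 and 0.77 CPM in sh72, against 2.7, 2.55 and 3.85 CPM in sh68, and 2.04, 1.69 and 1.61 CPM in shSCR. It was 0.74 ± 0.191 higher with sh68 and -1.27 ± 0.249 with sh72 (difference -2.01 ± 0.225, adjusted p = 5.32e-08). LINC00341 had 6.59, 7.84 and 6.7 CPM in sh72, against 19.5, 16.9 and 18.4 CPM in sh68, and 10.1, 10.9 and 9.64 CPM in shSCR, a difference of -1.39 ± 0.0832 (adjusted p = 1.06e-12). The SYNE3 row, at the same locus, had 19.4 ± 1.03 CPM in sh72, against 40.9 ± 3.96 CPM in sh68, and 23.7 ± 0.0431 CPM in shSCR, a difference of -1.09 ± 0.0624. LINC00598, whose exons overlap those of the transcription factor gene FOXO1 on the same strand, had 0.92 ± 0.0784 with sh68 and -0.25 ± 0.0876 with sh72, while LINC01612 had -0.19 ± 0.066 and 0.23 ± 0.0644. LINC00598 and LINC01612 were named for their opposite signs after their values were seen.

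The largest differences the other way were smaller. LINC01268 led, with 2.45 ± 0.165 (adjusted p = 9.41e-12) on the levels given above. LINC01102, on chromosome 2, had 13.3, 12.1 and 12.8 CPM in sh72, against 4.78, 6.49 and 5.25 CPM in sh68, and 6.49, 6.71 and 6.11 CPM in shSCR (1.20 ± 0.1, adjusted p = 4.24e-10), so here sh72 stood apart and sh68 overlapped or lay below shSCR. LINC00893, or EOLA1-DT, on chromosome X, had 2.2, 2.74 and 2.78 CPM in sh72, against 1.61, 1.47 and 1.23 CPM in sh68, and 2.41, 2.27 and 2.84 CPM in shSCR (0.82 ± 0.17, adjusted p = 0.000219). In LINC00893 it was sh68 that departed from shSCR, by -0.83 ± 0.171. LINC01589 had 0.83 ± 0.235, LINC01431 0.65 ± 0.161 and LINC00115 0.59 ± 0.233, with adjusted p of 0.00403, 0.00136 and 0.0341. Exons of LINC00115 overlap those of LINC01128 on the opposite strand.

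**Figure D4:**
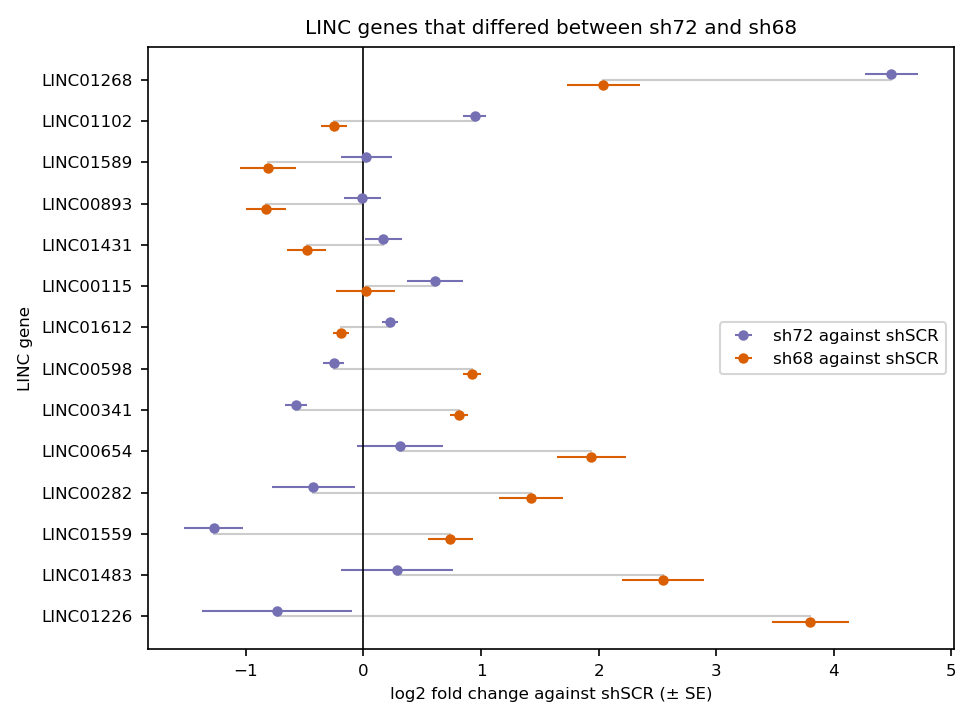
Log2 fold change against shSCR (± SE) with sh72 and with sh68 for the 14 LINC genes named for a difference between the shRNAs, ordered by sh72 minus sh68. LINC01268 at the top differs by 2.45 and LINC01226 at the bottom by -4.53, and 4 genes lie on opposite sides of 0 having passed with each shRNA.

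Neighbouring protein-coding genes were compared next, because some long noncoding RNAs act on or are transcribed with the gene beside them. For 101 LINC genes the nearest protein-coding gene was tested, 98 distinct genes. Of 32 LINC genes that rose, 14 had a neighbour that rose, 10 a neighbour that fell and 8 one that did not pass, beside 24.9% higher and 27.5% lower over all genes tested. The 13 that fell had 2 neighbours that rose, 5 that fell and 6 that did not pass, and the 56 that did not pass had 13, 23 and 20. The median log2 fold change of the neighbours was 0.02 beside risers, -0.195 beside fallers and -0.042 beside the rest. Across the 101 pairs, which share libraries and a few neighbours, Spearman's rho was 0.163 and Pearson's r 0.286, given as a description. Over the 54 pairs that overlap or lie within 10000 bases, rho was 0.101 and r 0.221. Over the 47 pairs farther apart, rho was 0.261 and r 0.392, so the values were not higher for near pairs. The difference by distance was not tested.

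Single pairs went both ways. CCDC54, a coiled-coil protein gene 136801 bases from LINC00882, had 1.27 ± 0.327 CPM in sh68 and 1.15 ± 0.338 CPM in sh72, against 0.266 ± 0.0205 CPM in shSCR (2.14 ± 0.296, adjusted p = 1.86e-06). SP9, beside LINC01305, was 1.69 ± 0.453 (adjusted p = 0.00312) at levels under 1 CPM. It passed with sh68 (2.54 ± 0.432, adjusted p = 2.53e-05) and not with sh72 (0.83 ± 0.561, adjusted p = 0.226). TNS3, a focal adhesion gene 39353 bases from LINC01447, had 476.1 ± 12.1 CPM in sh68 and 302.1 ± 3.19 CPM in sh72, against 519.5 ± 18.6 CPM in shSCR (-0.49 ± 0.032, adjusted p = 7.74e-12), the direction of LINC01447. ZBTB42, beside LINC00638, went the other way on the mean, with -0.54 ± 0.0647 (adjusted p = 2.39e-07). That fall came with sh72 (-1.10 ± 0.0797, adjusted p = 4.89e-11), while with sh68 ZBTB42 had 0.03 ± 0.0717 (adjusted p = 0.716).

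Other long noncoding RNAs with established names, from a list fixed by name, had 10 of 32 higher, 13 lower and 9 not passed with LSD1 shRNA, and a median of -0.058. That is 31.2% higher and 40.6% lower, against 24.9% and 27.5% of all genes tested. With sh68, 8 were higher and 16 lower (25% and 50%), against 27.4% and 28.1% of all genes tested. With sh72, 9 were higher and 7 lower (28.1% and 21.9%), against 24.7% and 26.3% of all genes tested. PART1, a prostate androgen-regulated transcript, had 24.3 ± 1.01 CPM in sh68 and 11.4 ± 0.684 CPM in sh72, against 3.08 ± 0.328 CPM in shSCR (2.40 ± 0.0836, adjusted p = 7.24e-17). MIR155HG, the host of miR-155, had 1.27 ± 0.377 (adjusted p = 0.00659), TP53TG1 0.56 ± 0.0625 and KCNQ1OT1, an imprinted antisense RNA, -0.54 ± 0.0466. Levels of MIR155HG were low, at 0.789, 0.399 and 0.227 CPM in sh68, sh72 and shSCR. With sh72 alone, MIR155HG did not pass (0.78 ± 0.45, adjusted p = 0.154). The difference between this list and the LINC genes was not tested.

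Genes of the machinery that degrades or ends noncoding transcripts were counted in the same way. Of 25 genes of the nuclear RNA exosome and its adaptors, 6 rose, 6 fell and 13 did not pass, with a median of -0.01. Each direction is 24%, near the 24.9% and 27.5% of all genes tested. With sh68, 2 rose and 7 fell (8% and 28%), against 27.4% and 28.1% of all genes tested. With sh72, 9 rose and 4 fell (36% and 16%), against 24.7% and 26.3% of all genes tested. EXOSC4, a core subunit, had -0.37 ± 0.0572, RBM7, of the nuclear exosome targeting complex, -0.27 ± 0.0528, EXOSC1, a cap subunit, 0.25 ± 0.0537 and NCBP1, which binds the RNA cap, 0.21 ± 0.0334. Of 28 genes of the Integrator and 3′ end cleavage machinery, 3 rose, 10 fell and 15 did not pass, or 10.7% and 35.7% in the 2 directions, with a median of -0.06. The shRNAs differed here. With sh68, 3 rose and 17 fell (10.7% and 60.7%), against 27.4% and 28.1% of all genes tested. With sh72, 6 rose and 6 fell (21.4% each), against 24.7% and 26.3% of all genes tested. Among Integrator subunits, INTS6 had -0.38 ± 0.0388, INTS8 0.38 ± 0.0385 and ASUN 0.29 ± 0.0355, and the cleavage factor CSTF3 had -0.25 ± 0.0412. The part of these genes in the LINC levels was not tested.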

How the data were processed

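Polyadenylated RNA of 9 libraries was sequenced. The authors deposited raw counts of reads for each gene symbol, which are whole numbers and not normalized. Per the submitters' processing notes, CASAVA 1.8.2, STAR 2.5.2, featureCounts 1.5.2 and hg38 were used (settings, annotation and strand option: not given in the sources used here). Columns name the LSD1 shRNAs sh68 and sh72, the sample titles number them, and the column names were used.

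CPM were taken on column totals. Counts were fitted with edgeR 4.0.16 in R 4.3.3 (filterByExpr, TMM, quasi-likelihood, 1 term a group, common biological coefficient of variation 0.0394), with p-values adjusted over all 15725 genes tested. The script was tested on simulated data. SE is the absolute log2 fold change over the square root of F.

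The LINC genes, lists and tests were chosen with earlier results of these data known. By the naming rule, the text gives the 12 highest and 12 lowest changes that passed with each shRNA and on the mean, with all 6 libraries beyond the 3 controls (9 lower ones met it), 6 per direction for sh72 minus sh68 with no overlap, the 8 most abundant, 4 on each side of the level rule, genes fixed by name, nearest coding genes, and up to 4 a list.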

Additional observations from a re-analysis of the deposited data

Results flagged for a closer look

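The LINC genes whose response differed between the 2 LSD1 shRNAs, by edgeR's test of sh72 minus sh68, were picked out for this difference, and the values are log2 differences. Above 0, so higher in sh72 than in sh68, were LINC01268 at 2.45, LINC01102 at 1.20, LINC01589 at 0.83, LINC00893 at 0.82, LINC01431 at 0.65, LINC00115 at 0.59 and LINC01612 at 0.42. Lower in sh72 than in sh68 were LINC01226 at -4.53, LINC01483 at -2.26, LINC01559 at -2.01, LINC00282 at -1.85, LINC00654 at -1.63, LINC00341 at -1.39 and LINC00598 at -1.18. Of these, LINC01226, LINC01483 and LINC00654 reached 0.5 CPM in sh68 alone. LINC01268 reached it in sh68 and sh72 but not in shSCR. KDM1A RNA was left at 17.7% of the shSCR level in sh72 and 20.6% in sh68, and summed B-cell markers were at 3860 to 3950 CPM in sh72, against 5600 to 5700 CPM in sh68; their part in these differences was not tested. Groups of 3 libraries were not tested for single libraries far from the rest.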

How the results depend on the processing

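Fitting the 6 LSD1 shRNA libraries as 1 group moved the count on the mean of both shRNAs to 27 higher and 9 lower, against 43 and 15; that fit holds the difference between the shRNAs in its spread, and 22 LINC genes lost their call in it. The counts stayed within 1.5 times with RLE scaling, library size alone, no filter, at least 1 CPM in 3 libraries (where 14 LINC genes were not tested), DESeq2 1.42.0 (41 higher and 14 lower on the mean), only the groups compared, and the 2 alternatives added after seeing the data, genes of at least 0.5 CPM in shSCR (34 and 15) and genes RefSeq types as noncoding (40 and 13). Leaving out 1 library at a time gave 38 to 46 higher and 11 to 16 lower on the mean, 43 to 48 and 14 to 23 for sh68, 32 to 38 and 15 to 20 for sh72, and 21 to 24 and 30 to 37 for sh72 minus sh68. The replicate numbers did not pair the libraries (residual r of same-numbered libraries -0.0358 to 0.0724), and with the replicate number as a block 45 rose and 16 fell on the mean, 47 and 24 with sh68, 37 and 21 with sh72, and 25 and 38 for sh72 minus sh68. No called value of a named gene changed sign. Of values that did not pass on the mean, LINC00909 turned to between 0.003 and 0.02 in 6 of 16 settings, LINC01465 to -0.041 without shSCR replicate 2, and LINC01559 to 0.067 with the 6 libraries as 1 group. LINC00116 passed in 6 of 16 settings, and the sh72 minus sh68 call of LINC00115 was lost in 4 of 16, with a difference of 0.345 without sh68 replicate 2. On the mean, the call of LINC01578 was lost in 3 of 16 settings (without shSCR replicate 2, without shSCR replicate 3, and with 1 group), and those of LINC00998, LINC00893 and LINC01226 in 2 each: with 1 group, and without shSCR replicate 1 (0.163), shSCR replicate 3 (-0.317) and sh72 replicate 3 (1.33) in that order of genes. LINC00324, LINC01000, LINC01102, LINC01483 and LINC00654 lost theirs with 1 group. LINC00282 passed without shSCR replicate 2 (0.921), and LINC01589 with the replicate block (-0.403). KDM1A kept -2.44 to -2.39. Low depth limits the genes under 1 CPM, where a control library can hold fewer than 10 reads.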
